A study of Homo sapiens with 4 samples.

Results

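Genes that drive cells through mitosis were examined for regions of H3K9la, a lactylated lysine 9 on histone H3, in the established oesophageal squamous cell carcinoma line KYSE30. The set names 47 genes for mitotic cyclins and kinases, the spindle checkpoint, centromere and kinetochore proteins, mitotic kinesins and cytokinesis factors. Of these, 46 matched a RefSeq table of 19970 protein-coding genes by symbol. FOXM1-AS1, an antisense RNA gene, was not matched and was not analysed here. A gene was called marked if a region of the peak list reached to within 1 kb of one of its gene ends (hg38), and the genes were chosen by name.

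The labels list 4 samples, namely ChIP with anti-H3K9la and matching input from an arm called sg3 and from another called V2. The labels do not explain these names and state no genotype or treatment. The cells of both arms were grown in DMEM with serum and antibiotics and fixed with formaldehyde. The study's title concerns SIRT3 as an enzyme that removes this mark. Each arm has 1 peak list, with 56875 regions in sg3 and 40332 in V2, and the deposited V2 list is attached to the input sample of that arm. With 1 library per arm there is no replicate check, no test of the arms and no p-value, and read depth is unknown. Each comparison below therefore compares 2 libraries, and intervals are exact Clopper-Pearson 95% intervals that cover counting error only. Fold enrichment, the ratio of ChIP signal to background at a summit, and -log10 q are the authors' values and rank regions only within their own list. Over all regions the median -log10 q was 13.0 in sg3 and 12.6 in V2, and the median fold enrichment was 4.97 and 5.22. Of 12 squamous epithelial marker genes, all 12 were marked in sg3 and 9 in V2, against 6 and 4 of 20 markers of other cell types, where a region is no measure of expression.

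In a dividing cell, cyclin B and CDK1 start mitosis, kinetochores couple centromeres to spindle microtubules, and the spindle checkpoint holds back the anaphase-promoting complex (APC/C) until every chromosome is attached. The APC/C then destroys securin and the mitotic cyclins, and a contractile ring divides the cell. Many genes of this programme are switched on together late in the cell cycle. Their promoters are known for a cell cycle homology region, usually written TTTGAA, placed close to the start of transcription, and for CCAAT boxes bound by NF-Y. Acylation of histone H3 at lysine 9 is generally found at the starts of active genes.

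Upstream promoter bases are shown for genes chosen to span the marking patterns. KIF23, ECT2 and CDC25B had the highest -log10 q among genes marked in both lists, CCNB1 came after TPX2 and BUB3 among those in sg3 alone, and BUB1B stands for genes in neither list. TPX2, BUB3 and BIRC5 would also have been shown but have no entry in the promoter table. CCNB2, PLK1 and TOP2A were added after their values were seen. CCNB2 and PLK1 show the spacing of the motifs. TOP2A shows CCAAT boxes only, since its TTTGAA letters begin before the printed bases, at -194 and -151. Each line holds the 150 bases before the RefSeq gene start (GRCh38.p14), read 5′ to 3′ on the strand of the gene, and the capitals mark the homology region letters TTTGAA, a box of letters CCAAT, or the E2F site letters GGCGGGA on either strand. On the opposite strand the box reads ATTGG and the E2F letters read TCCCGCC. The spans are chr15:69414199-69414348 (plus strand) for KIF23, chr3:172750576-172750725 (plus) for ECT2, chr20:3786801-3786950 (plus) for CDC25B, chr5:69167000-69167149 (plus) for CCNB1, chr15:59104996-59105145 (plus) for CCNB2, chr16:23678739-23678888 (plus) for PLK1, chr15:40160919-40161068 (plus) for BUB1B and chr17:40417897-40418046 (minus) for TOP2A.
KIF23: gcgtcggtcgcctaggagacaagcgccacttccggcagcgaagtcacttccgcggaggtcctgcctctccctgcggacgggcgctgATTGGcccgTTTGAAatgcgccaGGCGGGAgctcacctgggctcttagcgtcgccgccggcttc
ECT2: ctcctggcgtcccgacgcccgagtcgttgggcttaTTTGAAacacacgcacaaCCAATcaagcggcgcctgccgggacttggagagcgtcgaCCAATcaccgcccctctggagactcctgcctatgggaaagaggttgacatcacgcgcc
CDC25B: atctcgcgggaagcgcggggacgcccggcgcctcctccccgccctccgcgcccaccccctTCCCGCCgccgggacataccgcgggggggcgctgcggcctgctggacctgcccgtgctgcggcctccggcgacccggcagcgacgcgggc
CCNB1: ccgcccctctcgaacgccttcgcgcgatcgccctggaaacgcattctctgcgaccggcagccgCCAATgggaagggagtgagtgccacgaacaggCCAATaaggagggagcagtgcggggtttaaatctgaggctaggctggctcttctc
CCNB2: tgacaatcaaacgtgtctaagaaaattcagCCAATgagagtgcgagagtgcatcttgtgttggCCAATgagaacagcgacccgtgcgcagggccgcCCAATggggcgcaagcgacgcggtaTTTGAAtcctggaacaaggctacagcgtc
PLK1: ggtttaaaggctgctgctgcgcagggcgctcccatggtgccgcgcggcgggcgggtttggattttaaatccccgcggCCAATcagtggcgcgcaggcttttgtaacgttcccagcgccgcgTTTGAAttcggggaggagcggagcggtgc
BUB1B: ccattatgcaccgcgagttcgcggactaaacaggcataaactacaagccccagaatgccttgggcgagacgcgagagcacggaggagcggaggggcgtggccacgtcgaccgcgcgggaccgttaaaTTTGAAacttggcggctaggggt
TOP2A: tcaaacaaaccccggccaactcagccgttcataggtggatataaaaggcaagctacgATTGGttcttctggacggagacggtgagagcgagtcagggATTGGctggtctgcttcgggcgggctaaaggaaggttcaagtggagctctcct

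CCNB2, which encodes cyclin B2, has 3 CCAAT boxes in these bases followed by TTTGAA at position -29, and PLK1, the polo-like kinase gene, has a CCAAT box at -73 and TTTGAA at -29. KIF23, a kinesin of the central spindle, has a CCAAT box on the opposite strand at -64 and TTTGAA at -55. BUB1B, a checkpoint kinase gene without a region in either list, has TTTGAA at -23. CCNB1, the gene of cyclin B1, has CCAAT boxes at -87 and -55 and none of the TTTGAA letters here. CDC25B has neither motif before this start.

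Across the 38 mitosis genes with an entry, 26 promoters (68.4%, 95% CI 51.3 to 82.5%) held TTTGAA or its close variant TTCGAA within 250 bases before to 50 bases after the start, against 16.4% of all 35116 promoters in the table. CCAAT was found in 29 of 38 (76.3%, 95% CI 59.8 to 88.6%), against 34.6% of all promoters. Of the 26 genes with the homology region letters, 24 had a match within the last 80 bases before or the 50 bases after the start. GGCGGGA stood in 11 of 38 (28.9%, 95% CI 15.4 to 45.9%), against 15.4% of all promoters. With 1 promoter for each of 15812 protein-coding genes the shares were 13.5% for the homology region letters, 36.4% for CCAAT and 20.5% for GGCGGGA, the last inside the interval of the mitosis genes. The homology region letters were found in all 3 marking groups. Either form of the homology region letters stood in 9 of 14 promoters marked in both lists, in 10 of 15 marked in sg3 alone and in 7 of 9 marked in neither. GGCGGGA stood in 4 of 14 (95% CI 8.39 to 58.1%), 1 of 15 (0.169 to 31.9%) and 6 of 9 (29.9 to 92.5%) of them, beside 26.5%, 24.6% and 15.5% of all genes in the same groups. The median GC content was 61.7%, 62.7% and 59.3% in these 3 groups and 62.7% over 1 promoter of each of 15812 protein-coding genes. A match is a description of the letters and not a binding site.

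Mitosis genes were marked widely in the sg3 list and mostly not in the V2 list. In sg3, 34 of 46 genes had a region at an end (73.9%, 95% CI 58.9 to 85.7%), beside 47.2% of all protein-coding genes. In V2, 14 of 46 did (30.4%, 95% CI 17.7 to 45.8%), beside 28.7% of all genes. All 14 were also marked in sg3, so 14 genes were in both lists (28.2% of all genes were), 20 in sg3 alone (43.5%, 95% CI 28.9 to 58.9%, beside 18.9%) and 12 in neither (52.3% of all genes). No mitosis gene was marked in V2 alone, which at 3 counts leaves room for up to 6.52% (7.71% as the upper Clopper-Pearson limit), and over all genes that share was 0.501%. Among genes marked in sg3, V2 also marked 41.2% of mitosis genes (95% CI 24.6 to 59.3%) and 59.9% of all genes, so the share over all genes lay just above the interval.

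The strength of the sg3 regions differed between genes with and without a V2 region. For the 34 marked genes the median -log10 q of the strongest sg3 region was 19.5 (range 3.24 to 105.4), against 25.7 over all 9424 marked genes. It was 37.6 for the 14 genes in both lists and 16.4 for the 20 genes in sg3 alone, and the corresponding medians over all genes were 37.5 and 14.7. In V2 the 14 genes had a median of 25.0 (range 6.93 to 112.9), against 18.3 over the 5741 genes marked there. A group of 15 mitosis genes had an sg3 -log10 q from 10 to 20, and 1 of them was also in V2 (6.67%, 95% CI 0.169 to 31.9%), where 31.7% of all genes of that strength were. From 20 to 40 it was 5 of 8 (95% CI 24.5 to 91.5%) beside 68.4%, and at 40 or more 7 of 8 (47.3 to 99.7%) beside 95.4%, so both intervals held the share over all genes. Below 10 it was 1 of 3 (0.84 to 90.6%) beside 14.8%. The intervals of the other bins held it as well. The gene with an sg3 value over 40 and no V2 region was TPX2.

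**Figure D1:**
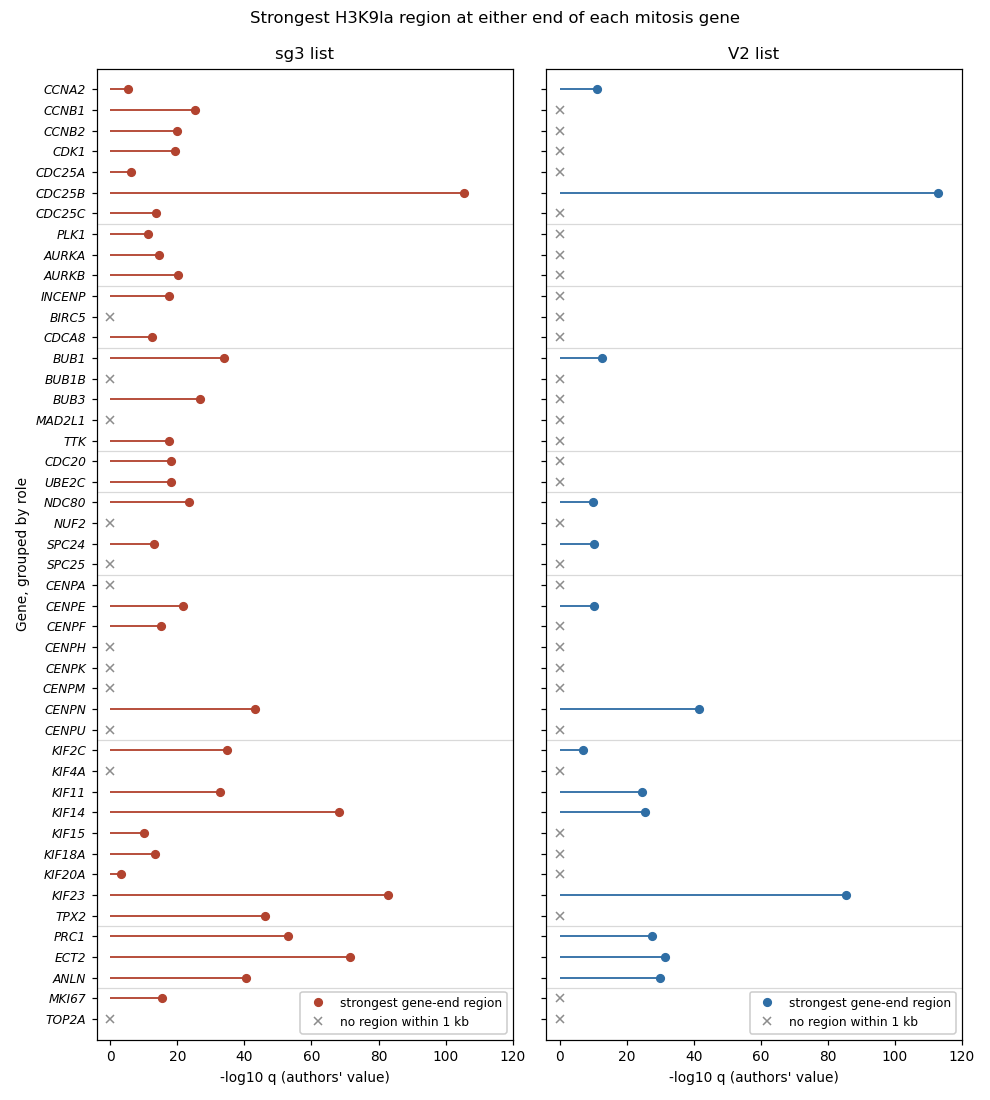
Strongest H3K9la region at either end of 46 mitosis genes, as the authors' -log10 q in the sg3 list (left) and the V2 list (right), with genes grouped by role and crosses for genes with no region within 1 kb. In sg3 34 genes carry a point and in V2 14 do, and CDC25B and KIF23 are the highest in both panels.

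The cyclin, CDK1 and CDC25 genes of the set were all marked in sg3. They had a region in 7 of 7 cases in sg3 (95% CI 59.0 to 100.0%, beside 47.2% of all genes) and in 2 of 7 in V2 (28.6%, beside 28.7%), so their V2 share was that of all genes. The groups by role hold 2 to 9 genes each, and their counts describe these genes only. CCNB1 had an sg3 region from 69167146 to 69167616 on chromosome 5, which begins 4 bases before the gene and had 6.54-fold enrichment with a -log10 q of 25.4. CCNB2 had a region with 4.90 and 19.8, and CDK1, the kinase that both cyclins activate, had 4.70 and 19.3. None of these 3 had a V2 region within 1 kb. CCNA2, the gene of cyclin A2, which acts in S phase and early mitosis, was marked in both lists. Its sg3 region, from 121823355 to 121823748 on chromosome 4, had 3.06-fold enrichment and a -log10 q of 5.25, the lowest sg3 value among the 14 genes in both lists. The V2 region, from 121823395 to 121823862, had 5.01 and 11.1, and an end of the BBS7 gene lies within 1 kb.

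The CDC25 phosphatases remove inhibitory phosphates from CDKs. CDC25A (fold enrichment 2.83, -log10 q 6.19) and CDC25C (4.72 and 13.5) were in sg3 alone. An end of FAM53C lies within 1 kb of the CDC25C regions. CDC25B carried the strongest region of the whole set, but at its far end. It ran from 3803006 to 3811543 on chromosome 20 in sg3, a width of 8538 bases, with a -log10 q of 105.4, and from 3805274 to 3811469 in V2, a width of 6196 bases, with 112.9. Both summits lay beyond the last base of the gene at 3806115, next to the non-coding gene LINC01730, and from position alone the genes cannot be told apart as their source. At its start CDC25B had regions with a -log10 q of 16.8 in sg3 and 17.5 in V2, and CENPB has an end within 1 kb of the sg3 region. RefSeq also lists starts 8838, 9359 and 13097 bases inside CDC25B, and an sg3 region from 3794630 to 3797991 lay within 1 kb of the inner starts at 8838 and 9359, as did V2 regions.

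Mitotic kinase and chromosomal passenger complex genes had no region in V2, and all but BIRC5 had regions in sg3. PLK1, which matures centrosomes and promotes mitotic entry, had regions with a -log10 q of 5.90 and 11.2, the stronger 754 bases inside the gene. AURKA, a spindle pole kinase, had regions with 14.5 and 13.3, the latter outside the gene, and CSTF1 has an end within 1 kb of both. AURKB, the kinase of the passenger complex, had 20.3 across its outer gene end and 16.0 outside it. Its partners INCENP (17.5) and CDCA8 (12.4, with an end of AIRIM within 1 kb) were marked in sg3 as well. BIRC5, the gene of survivin, had no region closer than 9684 bases in sg3 and 10126 in V2. Of these 6 genes, 5 were thus in sg3 alone, beside 18.9% of all genes. CDCA8 and PLK1 were those whose strongest value fell below the list median of 13.0. In V2 28.7% of all genes were marked, a share inside the interval for 0 of 3 genes in each group, which reached 70.8%.

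Spindle checkpoint and APC/C genes were more mixed. BUB1, a checkpoint kinase gene, was in both lists through a region upstream of its start, with 9.74-fold enrichment and a -log10 q of 33.8 in sg3 and 5.63 and 12.6 in V2. BUB3, its binding partner, had an sg3 region with a -log10 q of 26.7, and TTK, the kinase that sets the checkpoint in motion, had 17.4, both in sg3 alone. BUB1B and MAD2L1, which encode parts of the mitotic checkpoint complex, were unmarked. The sg3 region nearest to MAD2L1 was 599946 bases away and that nearest to BUB1B 52168 bases. CDC20, the APC/C activator that the checkpoint restrains, had sg3 regions on both sides of its start (18.05 upstream and 13.0 downstream). UBE2C, the ubiquitin-conjugating enzyme of the APC/C, had 9.65 and 18.2, the former with an end of DNTTIP1 within 1 kb. Neither CDC20 nor UBE2C had a V2 region within 1 kb. For CDC20 a V2 region lay just outside this window, 1086 bases before the start (fold enrichment 5.47, -log10 q 12.6).

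Kinetochore genes included most of the unmarked members. The NDC80 complex, which grips microtubules, had 2 of 4 genes marked, in both lists (95% CI 6.76 to 93.2%). That interval held the share of all genes in each list, 47.2% in sg3 and 28.7% in V2. NDC80 had an sg3 region of 1748 bases across its start (fold enrichment 7.85, -log10 q 23.6) and a V2 region of 521 bases upstream of it (4.56 and 9.87), at a start it shares closely with METTL4. SPC24 was marked at its far end, with 3.94 and 13.0 in sg3 and 4.33 and 10.2 in V2, and its start had no region. NUF2 and SPC25 were unmarked, with the nearest sg3 regions 155933 and 280148 bases away. Among 8 centromere protein genes, 3 were marked in sg3 (37.5%, 95% CI 8.52 to 75.5%, beside 47.2% of all genes) and 2 in V2 (25.0%, 3.19 to 65.1%, beside 28.7%), both near the share of all genes. CENPN, which recognises centromeric nucleosomes, had 7.18-fold enrichment with a -log10 q of 43.0 in sg3 and 8.26 with 41.7 in V2, and CMC2 has an end within 1 kb of these regions. CENPE, a kinetochore kinesin, had 21.5 in sg3 and 10.2 in V2 at a region before its start, and 21.6 at an sg3 region across the start without a V2 partner. CENPF, a large outer kinetochore protein, had 15.1 in sg3 alone. CENPA (the centromeric histone H3 variant), CENPH, CENPK, CENPM and CENPU (inner kinetochore subunits) had no region. CENPH lay just outside the 1 kb window, with an sg3 region 1022 bases away (-log10 q 2.19). The weakest inclusions by distance were a CDC25B region 992 bases and a KIF2C region 942 bases from the gene end, both in V2. CENPM had a region inside the gene in both lists, from 41940421 to 41941139 on chromosome 22 in sg3 (-log10 q 24.9) and from 41940454 to 41940841 in V2 (10.2).

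Kinesins and cytokinesis genes held the strongest starts. KIF23, which with its partner RACGAP1 bundles the central spindle, had a region on each side of its start in both lists. The upstream region spanned bases 69412952 to 69414056 of chromosome 15 in sg3 (10.8-fold enriched, -log10 q 82.7) and from 69413263 to 69414051 in V2 (16.6 and 85.5). The downstream region had 8.83 and 78.0 in sg3 and 5.60 and 41.3 in V2. The antisense gene KIF23-AS1 begins beside it. In V2 the upstream region was thus the stronger by fold enrichment, whereas the sg3 values of the pair lay closer together.

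KIF14, a kinesin of the midbody, had 68.3 in sg3 and 25.4 in V2 at its start. KIF11, the motor that pushes spindle poles apart, and KIF2C, a microtubule-depolymerising kinesin of centromeres, were in both lists through a region before the start and had a further sg3 region inside the gene. KIF18A (13.3), KIF15 (10.2) and KIF20A (3.24), motors of chromosome alignment, spindle assembly and cytokinesis, were in sg3 alone, each with a protein-coding neighbour at the region (METTL15, KIAA1143 and BRD8). KIF4A, a chromosome-bound kinesin, was unmarked. TPX2, which activates AURKA on the spindle, had the strongest region found in sg3 alone, from 31739270 to 31739787 on chromosome 20, at 8.39-fold enrichment and a -log10 q of 46.0.

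The 3 genes grouped here under cytokinesis, PRC1, ECT2 and ANLN, were in both lists, where 28.2% of all genes were. The count depends on this grouping. Of the cytokinesis and central spindle genes placed elsewhere, KIF23 was in both lists, KIF20A in sg3 alone and RACGAP1 in neither. The exact interval for 3 of 3 genes ran from 29.2 to 100.0%, so the share over all genes lay just below it. PRC1, the crosslinker of central spindle microtubules, had almost the same region in each, from 90993874 to 90994558 on chromosome 15 in sg3 (9.92 and 53.1) and from 90993873 to 90994516 in V2 (6.82 and 27.6). ECT2, the exchange factor that activates RHOA at the division site, had the highest fold enrichment of the set in sg3, 12.9 with a -log10 q of 71.6, and 8.92 with 31.4 in V2. ANLN, the anillin scaffold of the contractile ring, had 40.5 in sg3 and 29.8 in V2, next to MATCAP2. Of the proliferation genes, MKI67, the Ki-67 antigen gene, had 15.3 in sg3 alone and TOP2A, the topoisomerase that untangles chromosomes, was unmarked, with its nearest sg3 region 25532 bases away.

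Regions at mitosis genes lay inside the gene, before the start or across it. The promoter table gives a strand for 38 of the 46 genes and 15812 of all protein-coding genes. In sg3 28 of the 38 starts had a region within 1 kb (73.7%, beside 46.5% of all starts), and 2 far ends did (5.26%, beside 8.16% of all far ends). Coverage was highest 250 bases inside the gene, where 26 of 38 genes were covered (68.4%, 95% CI 51.3 to 82.5%), against 36.3% of all genes. It was 8 of 38 at the start itself (21.1%, beside 17.5%) and had a lower peak upstream, with 12 of 38 at position -550 (31.6%, beside 18.9%). In V2, coverage at 250 bases inside was 5 of 38 (13.2%, 95% CI 4.41 to 28.1%, beside 18.6%) and at -550 it was 7 of 38 (18.4%, beside 8.61%). Counting genes, 8 sg3 starts were covered, 7 had regions on both sides without covering it (9.28% of all genes), 1 upstream only (4.39%) and 12 downstream only (15.4%). In V2, 13 of 38 starts were marked (34.2%, beside 27.7%), with 1 covered (6.54%), 1 on both sides (4.64%), 7 upstream only (4.4%) and 4 downstream only (12.1%), and 2 far ends were marked (4.5%). The sg3 regions at member ends were narrow, with a median width of 523 bases against 684 over all gene-end regions. In V2 these widths were 517.5 and 569 bases.

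**Figure D2:**
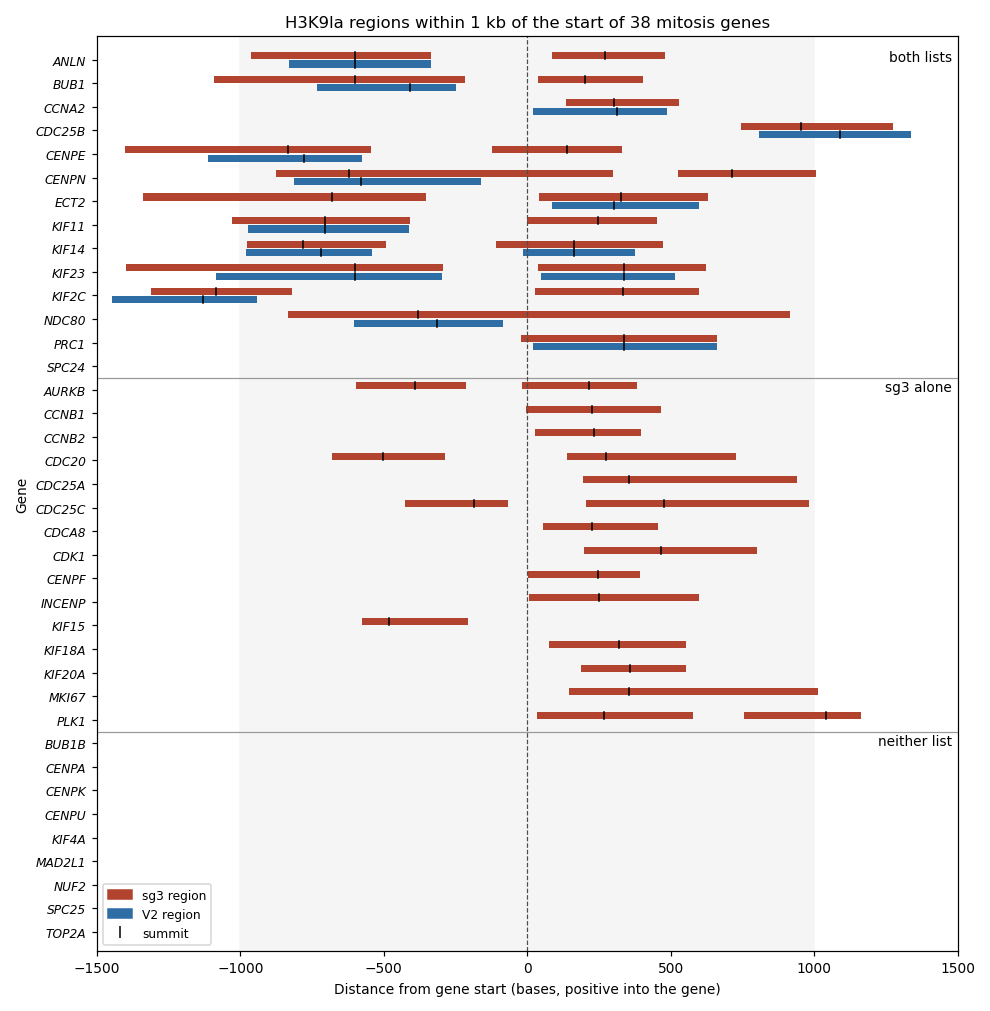
H3K9la regions within 1 kb of the start of 38 mitosis genes with a strand, drawn by distance from the start in bases (positive into the gene, dashed line at the start, grey band 1 kb each way), with sg3 in red, V2 in blue and summits as black ticks. In sg3 27 summits lie inside the gene and 14 before it, and in V2 6 lie inside and 9 before it. SPC24 is in both lists through its far end only.

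Downstream of the start, a smaller share of the sg3 regions had a V2 partner at mitosis genes than over all genes. This split by side was made after the regions were seen. At the 38 starts, 9 of 14 sg3 regions with a summit before the start overlapped a V2 region (64.3%, 95% CI 35.1 to 87.2%). Over all genes 52.3% of 3372 such regions did, a share inside that interval. Of the 27 with a summit inside the gene, 6 did (22.2%, 95% CI 8.62 to 42.3%), beside 53.5% of 6510 over all genes, a share that lies above the interval for mitosis genes. The median -log10 q was 22.6 for the upstream and 16.8 for the downstream regions of mitosis genes, and 19.5 and 22.97 over all genes. Strength thus moved with the side, and its part in the result was not tested beyond the following split. With -log10 q at 20 or above, 7 of 8 upstream and 4 of 10 downstream regions had a V2 partner (95% CI 12.2 to 73.8%), beside 80.5% and 77.4% over all genes. Below 20 it was 2 of 6 and 2 of 17, beside 25.9% and 22.5%. For downstream regions of mitosis genes the share over all genes lay above the interval in the stronger bin and inside it (1.46 to 36.4%) in the weaker one.

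**Figure D3:**
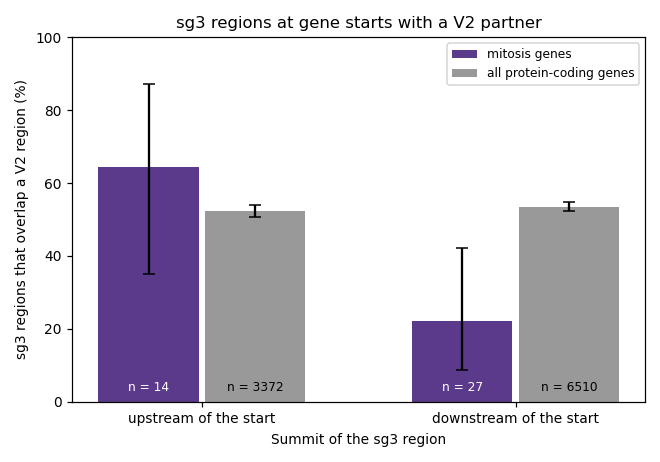
Percentage of sg3 regions at gene starts that overlap a V2 region, by the side of the start on which the sg3 summit lies, for mitosis genes (purple) and all protein-coding genes (grey), with exact 95% intervals and the number of regions in each bar. The downstream bar of mitosis genes stands at 22.2% and the other 3 bars between 52.3% and 64.3%.

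Gene by gene, 12 mitosis genes had sg3 summits on both sides of the start. In V2, 6 of them (ANLN, BUB1, CENPE, CENPN, KIF11 and KIF2C) had a summit upstream only, 1 (ECT2) downstream only and 2 (KIF14 and KIF23) on both sides. The other 3 (AURKB, CDC20 and CDC25C) had no V2 region within 1 kb of the start, and for CDC20 the nearest lay 1086 bases before it. Over the 2152 protein-coding genes with sg3 summits on both sides, V2 had an upstream summit only in 17.1%, a downstream summit only in 27.0%, both in 33.6% and none in 22.4%. For mitosis genes the interval of the upstream-only share ran from 21.1 to 78.9%. KIF11 shows the pattern in its values. Its upstream region had 3.56-fold enrichment and a -log10 q of 12.0 in sg3 and 8.56 and 24.6 in V2, with the summit on the same base, while its downstream region (8.38 and 32.8) was in sg3 alone. KIF2C likewise had 26.2 upstream and 34.8 downstream in sg3, and 6.93 upstream in V2. Of the 34 marked genes, 12 had a protein-coding neighbour with an end within 1 kb of an sg3 region. Without such genes, 6 of 9 upstream regions (66.7%) and 4 of 19 downstream regions (21.1%) overlapped V2. The count of genes with neighbours and the shares without them were not computed over all genes. AURKB has its nearest listed start 326 bases inside the gene.

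Where both lists had a region, most summits lay within 100 bases of each other, at mitosis genes and over all gene ends. All 18 V2 regions at member ends overlapped an sg3 region (95% CI 81.5 to 100.0%), beside 96.7% of all V2 gene-end regions. Of the 50 sg3 regions at member ends, 17 overlapped a V2 region (95% CI 21.2 to 48.8%), beside 53.3% of all sg3 gene-end regions. The median distance between the summits of the 18 overlapping pairs was 34 bases, against 41 over all gene-end pairs. In 7 pairs it was at most 10 bases (38.9%, 95% CI 17.3 to 64.3%, beside 19.0%), and for KIF11, KIF14 and both KIF23 regions the summits lay on the same base. In 4 pairs it was over 100 bases, namely 101 at SPC24, 136 and 6039 at CDC25B and 192 at BUB1. The pair at 6039 was a short V2 region inside the broad sg3 region. Over all genes, 100 of 6486 pairs had summits on the same base and 1816 had them over 100 bases apart.

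Bodies of mitosis genes carried few regions. More than 1 kb from either end, 5 of 46 genes held a region in sg3 (10.9%, 95% CI 3.62 to 23.6%) and 3 in V2, beside 26.0% and 19.4% of 18721 protein-coding genes longer than the window. This came to 10 regions in 1.613 Mb of gene body in sg3, or 6.20 per Mb, against 17.7 per Mb over all genes, and to 4.34 against 12.9 per Mb in V2. CDC25B alone held 5 of the 10 in sg3 and 5 of the 7 in V2.

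Other genes of the mitotic programme, from lists chosen by function, were also marked in sg3 more widely than in V2. Of 103 such genes 78 were marked in sg3 (75.7%, 95% CI 66.3 to 83.6%) and 45 in V2 (43.7%, 95% CI 33.9 to 53.8%), beside 47.2% and 28.7% of all genes, and none in V2 alone. The V2 interval lay above the share of all genes, whereas that of the 46 mitosis genes held it, and the intervals of both sets overlapped. Wider marking in sg3 than in V2 was also found over all genes, with 28.2% of them in both lists and 18.9% in sg3 alone. Further kinetochore genes were in both lists in 6 of 24 cases and in sg3 alone in 10, led by CENPO (-log10 q 31.6), ZWILCH (28.8), CENPS (23.3) and CENPL (18.9). APC/C genes were in both in 4 of 17 and in sg3 alone in 9, including the core subunits ANAPC2 (30.4), CDC26 (29.6), ANAPC1 (22.0) and CDC27 (21.3). The shares of further kinetochore genes (25.0%) and APC/C genes (23.5%) in both lists lay near that of all genes. Spindle proteins and further kinesins were in both in 6 of 16 and in sg3 alone in 7, among them KIF18B (26.9), ASPM (25.6), CKAP2 (24.4) and CIT (19.8).

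Cohesin and condensin genes, which hold and fold chromosomes, were divided with 13 of 21 in both lists and 2, SMC4 (33.1) and NCAPH (17.8), in sg3 alone. STAG2 had 68.6 in sg3 and 37.2 in V2, and NIPBL 64.2 and 25.7. Further mitotic kinases and regulators were in both lists in 10 of 14 cases, led by CKS1B (112.0 in sg3 and 61.5 in V2) and CKS2 (105.0 and 47.5), small subunits of CDK complexes. In sg3 alone there were 2, BORA (11.6) and HASPIN (10.1), and the cyclin genes CCNA1 and CCNB3 were in neither list. Genes of the DREAM and MYBL2 complexes, which bind the cell cycle homology region, were in both in 6 of 11, including LIN54 (44.8 and 18.4), and in sg3 alone in 3, TFDP2 (25.0), LIN52 (12.4) and RBL1 (10.3). DNA replication genes, the nearest comparison outside mitosis, were in both in 9 of 35 and in sg3 alone in 15, led by POLA2 (44.1), RFC4 (42.1), RPA2 (37.7) and RFC2 (36.1). Their V2 coverage of 25.7% (95% CI 12.5 to 43.3%) lay within counting error of the 30.4% of the mitosis genes and the 28.7% of all genes. Either form of the homology region letters stood in 1 of 31 promoters of DNA replication genes. Among the other lists it stood in 11 of 15 promoters of spindle proteins and further kinesins. For cohesin and condensin genes it was 10 of 20, for further kinetochore genes 8 of 21 and for further mitotic kinases and regulators 4 of 11. APC/C genes had it in 3 of 17 and DREAM and MYBL2 genes in 2 of 11.

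**Figure D4:**
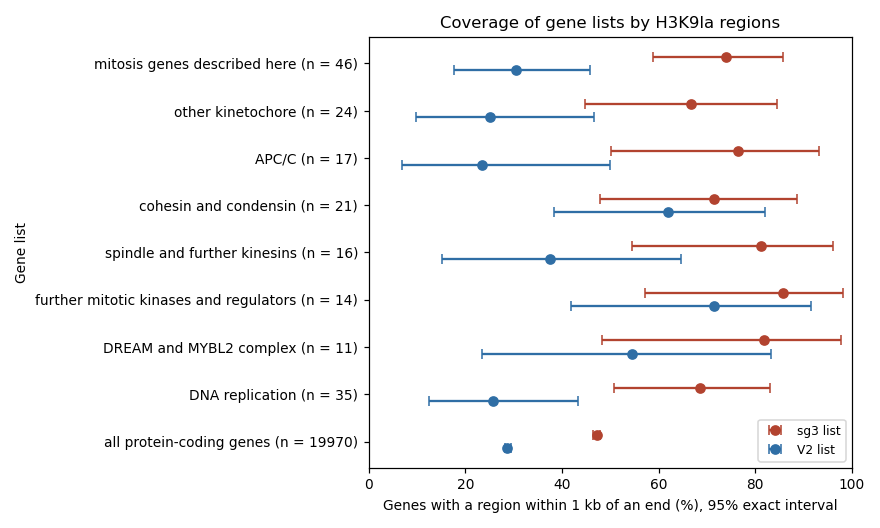
Percentage of genes with an H3K9la region within 1 kb of an end in the sg3 list (red) and the V2 list (blue), for the 46 mitosis genes, 7 other lists and all protein-coding genes, with exact 95% intervals. The sg3 points of all 8 lists lie between 66.7% and 85.7%, above the 47.2% of all genes, and the V2 points spread from 23.5% for APC/C genes to 71.4% for further mitotic kinases and regulators.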

How the data were processed

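H3K9la ChIP-seq of KYSE30 cells was analysed from 2 deposited peak lists, with 1 library behind each arm. Tools named by the submitters' processing notes were MACS2 2.2.9.1, Bowtie2 2.5.1, SAMtools 1.18, Trim Galore 0.6.10 and FastQC 0.12.1 on hg38. Command line, control library, pooling and depth were not given in the sources used here. The fold enrichment (a ratio), the -log10 p and -log10 q and the integer score of a record are the authors' deposited values, and the score and -log10 p were not used. Records of a list did not overlap each other, and regions were called shared from 1 base of overlap. Gene positions, strands and promoters (250 bases before to 50 after a start) came from RefSeq tables of GRCh38.p14, the same build. Where strand was given, the start was the outer gene end. Marking was computed with Python 3.11.15, pandas 2.3.3 and scipy 1.17.1 and tested on simulated data. Members and lists were chosen with earlier results of these data known. All members are named. Each other list names at most 4 marked genes, those in V2 alone, then sg3 alone, then both, by -log10 q. RACGAP1, CCNA1 and CCNB3, which were in neither list, are named in addition. Protein-coding genes within 1 kb of a region are named as neighbours. Alternatives changed thresholds, list length, windows, placement, merging, overlap and gene end.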

Additional observations from a re-analysis of the deposited data

How the results depend on the processing

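Of 122 values recomputed for 14 results under alternative settings, 119 stayed within 1.5 times the reported count or within the reported value's interval. The other 3 concern genes marked in V2 alone, of which there were 0. Requiring a -log10 q of 10 gave 1 (CCNA2), requiring 4-fold enrichment gave 2 (CCNA2 and SPC24) and lists of equal length gave 1 (CCNA2). In each case the sg3 region of the gene fell under the stricter threshold. The V2 share of downstream sg3 regions ranged from 21.1% to 23.1% and that of upstream regions from 53.8% to 69.2% over alternatives chosen after seeing the data. Over all genes, in the alternatives where it was computed, the downstream share ranged from 42.9% to 58.7% and the upstream share from 46.7% to 59.4%. The upstream ranges of mitosis genes and all genes thus overlapped. No paired analysis was possible because each arm has 1 library. Depth is unknown, so a missing region cannot be told apart from a shallow library, and fold enrichments cannot be compared between lists.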
